A study of Mus musculus with 8 samples.

Results

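Of the 18193 genes measured here on a mouse Affymetrix array, 65 were matrix metalloproteinases, their relatives or their inhibitors. The RNA came from GFP-positive cells that had been sorted out of digested kidneys. The genes were taken by symbol, as every gene whose name begins with Mmp, Adam, Adamts or Timp followed by a digit and that has a probe set assigned to that symbol alone. They comprised 18 MMP, 28 ADAM, 15 ADAMTS and 4 TIMP genes. Mice carried an FSP1-eGFP transgene on the C57BL/6 background, were labelled male and were 6 months old. In 5 ischemic mice blood flow to the left kidney was stopped with a clamp on its artery and vein for 45 minutes and then restored, and cells were taken on day 3, with buprenorphine given after surgery. The 3 control kidneys had no ischemia and are called normal and sham in the labels. In this reporter GFP follows the promoter of FSP1 (S100a4), which is widely used to mark fibroblasts and is also active in macrophages and other leukocytes. The comparison asks how the sorted cells of an injured kidney differ from those of a kidney without injury.

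Matrix metalloproteinases (MMPs) are zinc enzymes made as inactive precursors, which cut collagens, gelatin, proteoglycans and elastin outside the cell. ADAMs are membrane-bound relatives that release growth factors, cytokines and receptors from the cell surface, and ADAMTS enzymes are secreted relatives that cut proteoglycans and trim procollagens. TIMPs bind the active sites of these enzymes and block them, and in the kidney the balance between the enzymes and TIMPs bears on the turnover of basement membrane and interstitial matrix.

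Several arrays stood apart from their groups or labels. Xist, the RNA that coats the inactive X, read 9.39 to 11.21 on the log2 scale used here in 3 arrays labelled male (ischemic 1, ischemic 2 and normal 1), against 4.49 to 4.96 in the other 5. The Y-linked Eif2s3y read 5.84 in both ischemic 1 and normal 1, but 7.78 in ischemic 2 and 7.68 to 8.87 in the other 5, so the 3 arrays were not alike in Y-linked signal. The Xist class used as a block is therefore a split of arrays by signal, not of mice by sex, and what it reflects was not tested. Ischemic 1 correlated least with the rest across genes (median 0.753), where the other 7 arrays had medians of 0.850 to 0.913. Of the cell type lists, all 13 measured macrophage and monocyte genes reached the median signal of the array's genes (5.93). So did 8 of 12 fibroblast and pericyte genes, among them Col1a1, Col1a2, Pdgfrb and Postn. Dcn, Lum, Pdgfra and, narrowly, Col3a1 (5.90) were below it. The macrophage list mean ran from 9.58 to 10.44 in ischemic and from 8.92 to 9.16 in normal arrays. Proximal tubule genes, at 6.40 to 8.12 in ischemic and 9.33 to 10.85 in normal arrays, went the other way. All values are log2(intensity + 16), on which a deposited intensity of 1 reads 4.09, the scale understates changes of dim genes, and signals of different probe sets do not rank the abundance of different RNAs. With 5 arrays against 3, their number sets how precise any difference can be. The labels speak of 5 ischemic mice but do not say that the control kidneys came from separate mice, so p-values measure only the spread between these samples. In such sorted bulk samples fewer cells of a type and less RNA per cell cannot be told apart.

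No MMP, ADAM, ADAMTS or TIMP gene passed the comparison of ischemic with normal kidneys. Of the 65 genes, 0 had a limma adjusted p under 0.05, against 0 of all 18193 genes (0%), and 0 had an unadjusted p under 0.05. Leaving out 1 array brought up to 3 members under an unadjusted 0.05: Adam8 without ischemic 1, Adamts1, Adamts9 and Timp3 without ischemic 5, and Mmp14 and Mmp19 without normal 3. In those settings the higher side held 633 of all genes without ischemic 1 and 601 without normal 3. The lower side held 1037 without ischemic 5. With all 8 arrays, 384 genes (2.11%) had an unadjusted p under 0.05 with a higher value in ischemic arrays. A lower value went with such a p in 913 genes (5.02%). The adjusted p of the members ran from 0.770 to 0.999. In 2 of 65 genes, Timp1 and Adam15, every ischemic array was above every normal array (1.89% of all genes), which held for 0 members once arrays were scaled to ribosomal protein genes, and in 0 of 65 every ischemic array was below every normal one (3.44% of all genes). The differences, always ischemic minus normal, ran from −1.59 in Adamts1 to 1.18 in Adam8, and 43 of 65 were positive (66.2%, against 54.8% of all genes). The median difference was 0.13 for MMP, 0.11 for ADAM, −0.027 for ADAMTS and −0.029 for TIMP genes, against 0.041 for all genes. With arrays scaled to ribosomal protein genes the median of all genes moved to −0.15, and 26 of 65 members were positive against 32.5% of all genes.

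**Figure D1:**
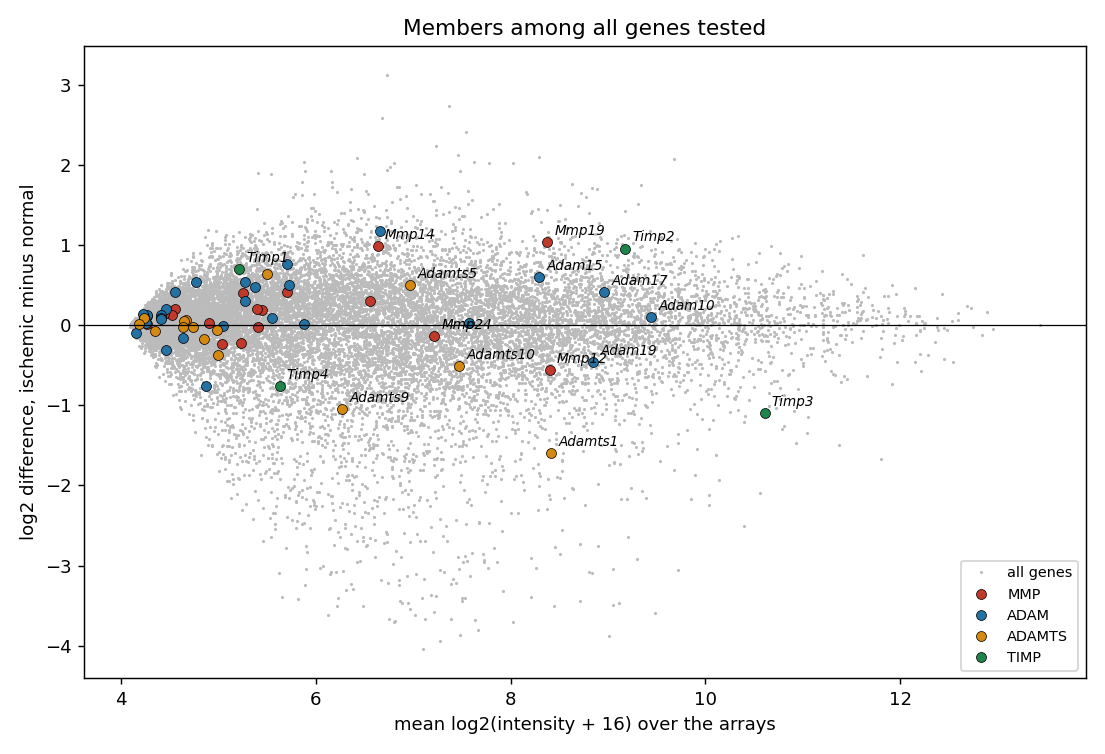
Difference between groups (y axis, log2, ischemic minus normal) against mean signal over the 8 arrays (x axis, log2(intensity + 16)) for all 18193 genes in grey and the 65 members in colour by subfamily; the names mark the genes described in most detail. Members spread from −1.59 (Adamts1) to 1.18 (Adam8) within the cloud of all genes, and 48 of 65 lie below the median signal of 5.93.

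The lack of calls leaves wide bounds for most of these genes. Only 17 of the 65 had a mean signal that reached the median over all genes, and the 95% interval of the difference lay within 2-fold in either direction for 1 of those 17, Adam10. For the other 16 a change of 2-fold or more in at least one direction lay inside the interval. Among the 17 the median spread from the lowest to the highest array was 2.98 on the log2 scale.

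**Figure D2:**
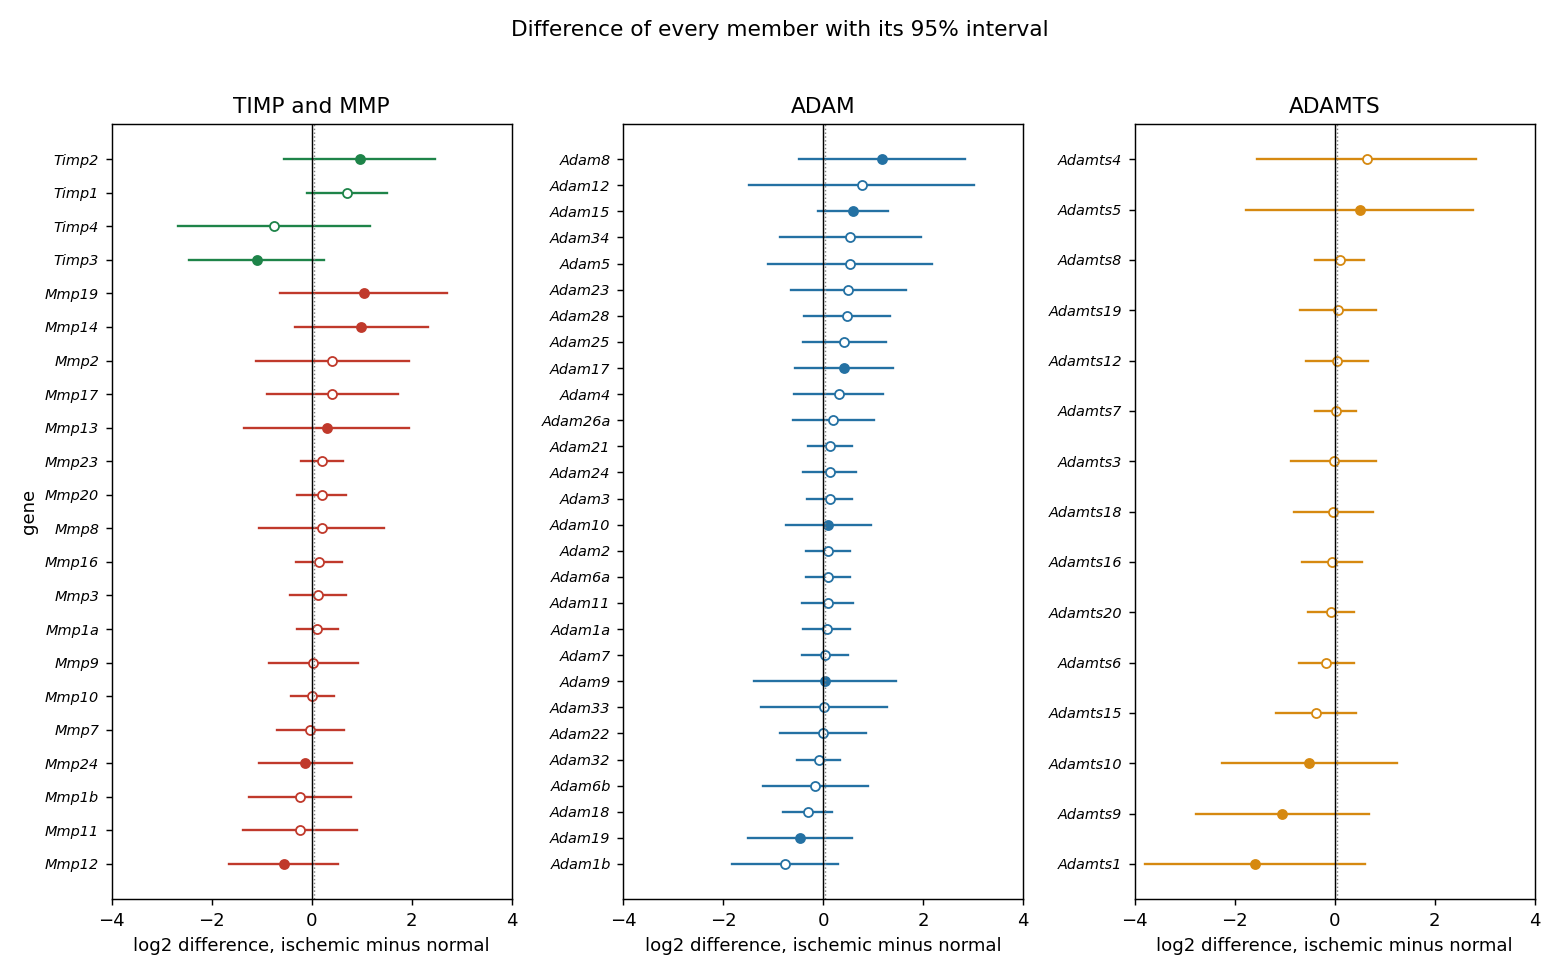
Difference between ischemic (n = 5) and normal (n = 3) arrays for all 65 members (points, log2) with the 95% limma interval (lines, not adjusted for the number of genes), in panels for TIMP and MMP, ADAM, and ADAMTS genes. Filled points are genes that reach the median signal, open points lie below it, and the dotted line is the median of all genes at 0.041; every interval includes 0.

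Among the inhibitors, 2 read higher and 2 lower in the ischemic arrays. Timp1, an inhibitor of secreted MMPs that is often induced in injured tissue, read 5.35, 5.16, 6.34, 5.39 and 5.12 in ischemic arrays 1 to 5 and 4.21, 5.10 and 5.01 in normal arrays 1 to 3. The groups did not overlap, but the lowest ischemic and highest normal array lay close together, and the signal was below the median of all genes. The means were 5.47 ± 0.50 (SD, n = 5) and 4.77 ± 0.49 (SD, n = 3), which differ by 0.70 ± 0.35 (SE) without passing (limma adjusted p = 0.770). Permuting the groups over all 56 possible splits gave a two-sided exact p of 0.0357 for Timp1, unadjusted, where 0.0179 is the smallest such p. An exact p under 0.05 was found for 1 of 65 members, Timp1. The share of all genes with such a p was not computed, so this count does not set Timp1 apart. With 1 array left out Timp1 ran from 0.42 (without normal 1) to 0.86 (without normal 2).

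Timp3 binds to the extracellular matrix and inhibits ADAM17 and aggrecan-cutting ADAMTS enzymes as well as MMPs. Its levels were 9.13, 9.46, 9.87, 10.75 and 11.78 in ischemic arrays 1 to 5 and 10.72, 11.68 and 11.48 in normal arrays 1 to 3. Ischemic 5 was the highest of all 8 arrays, so the groups overlapped although 3 of 5 ischemic arrays were below all normal ones. The means of 10.20 ± 1.07 (SD, n = 5) and 11.30 ± 0.51 (SD, n = 3) differed by −1.10 ± 0.59 (SE), which did not pass (limma adjusted p = 0.823). All 4 probe sets of Timp3 gave a negative difference, from −1.96 to −1.10. The difference was −1.49 without ischemic 5 and −0.83 without ischemic 1.

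Timp2, which inhibits MMPs and also takes part with Mmp14 in activating Mmp2, read 8.84, 8.68, 9.84, 10.04 and 10.27 in ischemic arrays 1 to 5 and 6.87, 9.20 and 9.66 in normal arrays 1 to 3. Normal 1 was far below the other 7 arrays. The means were 9.53 ± 0.73 (SD, n = 5) and 8.58 ± 1.49 (SD, n = 3). The difference of 0.96 ± 0.66 (SE, limma adjusted p = 0.903) was 0.10 without normal 1 and 1.497 without normal 3, and of the 6 probe sets 4 gave a positive and 2 a negative difference, from −0.89 to 0.96. Timp4 read 4.87, 4.44, 5.86, 4.45 and 7.10 in ischemic arrays 1 to 5 and 4.33, 7.67 and 6.30 in normal arrays 1 to 3, with both groups spread over nearly the whole range. Its difference of −0.76 ± 0.84 (SE, limma adjusted p = 0.954) became 0.028 without normal 2 and −1.64 without normal 1.

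**Figure D3:**
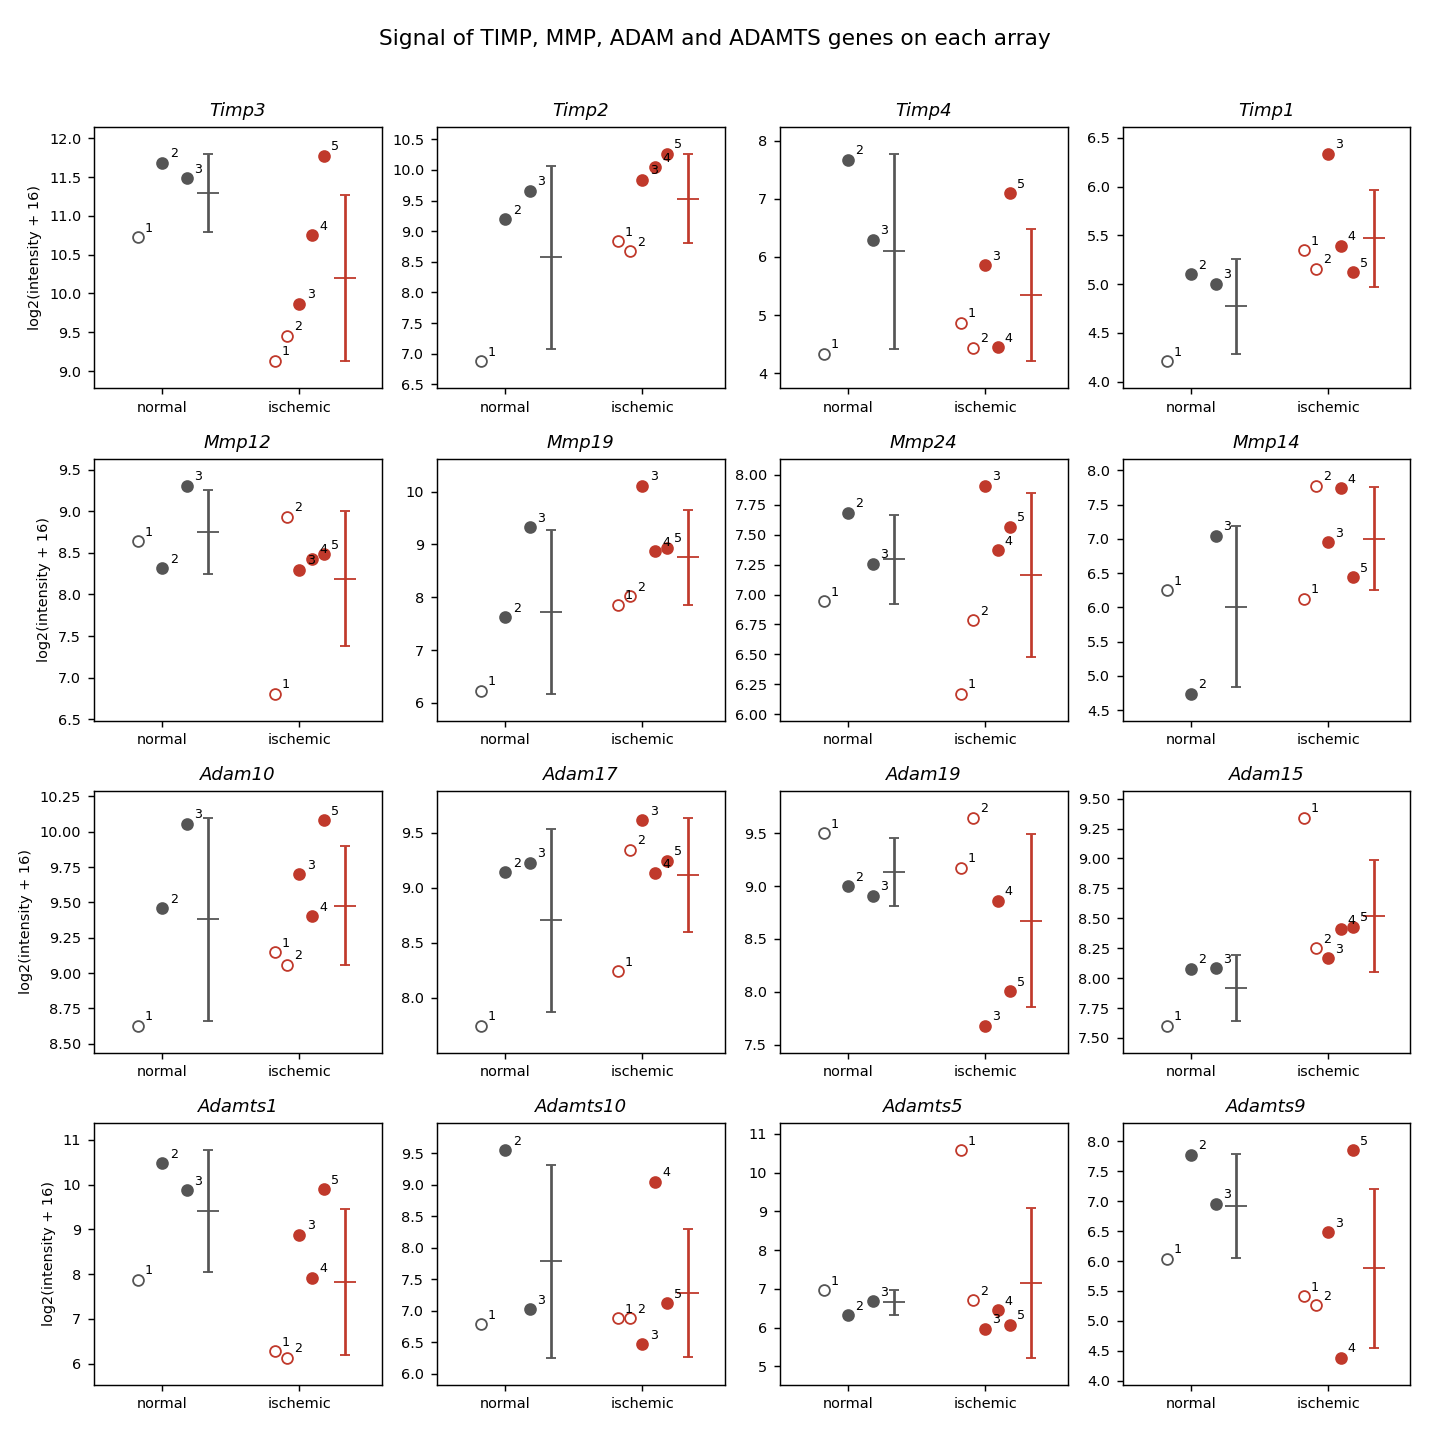
Signal (y axes, log2(intensity + 16), each panel on its own scale) of 16 genes in the normal (grey, n = 3) and ischemic (red, n = 5) arrays, with replicate numbers beside the points and the mean ± SD to their right. Open points are the 3 arrays with high Xist signal; Timp1 and Adam15 are the genes whose groups do not overlap, and single arrays such as ischemic 1 in Adamts5 lie far from the rest.

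The MMP genes taken for a full account, by their mean signal, were Mmp12, Mmp19, Mmp24 and Mmp14. Mmp12, the elastase of macrophages, read 6.81, 8.93, 8.30, 8.43 and 8.48 in ischemic arrays 1 to 5 and 8.64, 8.32 and 9.31 in normal arrays 1 to 3. Apart from the low ischemic 1 the groups covered much the same range. Its difference was −0.56 ± 0.47 (SE, limma adjusted p = 0.933), with means of 8.19 ± 0.81 (SD, n = 5) and 8.75 ± 0.50 (SD, n = 3), and it was −0.22 without ischemic 1 and −0.29 without normal 3. This sign was opposite to that of the macrophage list, all of whose 13 measured genes had positive differences (median 0.91), and the difference between Mmp12 and the list was not tested.

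Mmp19, a secreted MMP that cuts basement membrane proteins, read 7.86, 8.02, 10.11, 8.87 and 8.94 in ischemic arrays 1 to 5 and 6.23, 7.62 and 9.33 in normal arrays 1 to 3. All 5 ischemic arrays were above normal 1 and normal 2, and normal 3 was above all but ischemic 3. The difference of 1.03 ± 0.73 (SE) between means of 8.76 ± 0.90 (SD, n = 5) and 7.73 ± 1.55 (SD, n = 3) did not pass (limma adjusted p = 0.914). It was 0.29 without normal 1 and 1.83 without normal 3, and the other probe set of Mmp19 gave 1.14. Mmp14, the membrane-type collagenase that activates Mmp2, read 6.12, 7.78, 6.95, 7.74 and 6.44 in ischemic arrays and 6.25, 4.74 and 7.04 in normal arrays. The low value of normal 2 set the spread of the normal group. Its difference was 0.99 ± 0.58 (SE, limma adjusted p = 0.857), with 0.36 without normal 2 and 1.51 without normal 3, and 1 of its 3 probe sets had a negative difference (−0.20). Mmp24, another membrane-type MMP, differed by −0.13 ± 0.41 (SE, limma adjusted p = 0.973), with means of 7.16 ± 0.69 (SD, n = 5) and 7.29 ± 0.37 (SD, n = 3). The sign of Mmp24 turned without ischemic 1 (0.11) and without normal 2 (0.062).

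By role, the remaining MMPs showed small differences at mostly low signals. The 14 MMPs other than these 4 differed by −0.23 to 0.41, 11 of them positively, and 13 of the 14 lay below the median signal. Mmp2, Mmp8, Mmp9 and Mmp13 were chosen for mention after their values were seen. Mmp2, the gelatinase activated by Mmp14, read 4.79, 5.36, 5.03, 6.99 and 7.09 in ischemic arrays and 4.70, 5.09 and 6.52 in normal arrays, so that ischemic 4, ischemic 5 and normal 3 were high and the rest low. Its difference of 0.41 ± 0.67 (SE, limma adjusted p = 0.962) was 0.043 without normal 1, 0.96 without normal 3 and −0.38 with the replicate number as a block. That block leaves ischemic 4 and ischemic 5, which have no normal array of the same number, out of the difference. Mmp9, the other gelatinase and a product of neutrophils and macrophages, stayed between 4.47 and 5.18 in every array but ischemic 3 (6.09), and differed by 0.033 ± 0.39 (SE) or by −0.26 without ischemic 3 and −0.10 without normal 2. The collagenase of neutrophils, Mmp8, was also highest in ischemic 3 (7.14, against 4.65 to 5.92 elsewhere) and differed by 0.20 ± 0.55 (SE), or by −0.21 without ischemic 3 and −0.029 without normal 3. The neutrophil list mean was highest in the same array (5.97, against 4.94 to 5.78 elsewhere), with 7 of its 10 measured genes below the median signal, and its part in these values was not tested. The 3 stromelysins measured, Mmp3, Mmp10 and Mmp11, differed by −0.23 to 0.13.

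A cluster of 9 neighbouring MMP genes on chromosome 9 holds the 4 collagenases measured and several other secreted MMPs, and 7 of the 9 hold the same element upstream of an annotated start site. At the start of the gene itself 6 of the 9 have it. In Mmp12 it lies before another start site, 2977 bases inside the gene, and the window at the gene's start has none. The letters TGACTCA (the binding sequence of AP-1, a Fos and Jun dimer) on either strand were found within 250 bases upstream of the start in 7 of 13 MMP genes with a promoter in the RefSeq promoters used (53.8%), in 1 of 14 ADAM genes (Adam19), in 0 of 6 ADAMTS genes and in 0 of 4 TIMP genes. Of the 14452 array genes with such a promoter, 4.73% had it. TATAAA on either strand, which does not overlap with it, was in 7 of the 13 MMP genes and in 10.5% of those array genes. Windows were found for 37 of the 65 members, some genes with more than 1. The Adam19 match to TGACTCA lies before an inner start site, and the window at the start of that gene has none. The 100 bases before the start are shown for those 7 genes, for Mmp12 at the inner start site, because they hold the element (GRCm38.p6, 5′ to 3′ on the strand of the gene, capitals marking TGACTCA or its reverse complement).

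Mmp13 (chr9:7272414-7272513, plus strand): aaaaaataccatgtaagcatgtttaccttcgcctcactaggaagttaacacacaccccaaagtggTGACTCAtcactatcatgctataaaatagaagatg
Mmp12 (chr9:7347274-7347373, plus strand): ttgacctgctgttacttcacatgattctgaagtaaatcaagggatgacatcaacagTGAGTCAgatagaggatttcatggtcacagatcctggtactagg
Mmp1b (chr9:7388027-7388126, minus strand): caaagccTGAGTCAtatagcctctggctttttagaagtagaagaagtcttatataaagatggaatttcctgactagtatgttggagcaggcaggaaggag
Mmp3 (chr9:7445722-7445821, plus strand): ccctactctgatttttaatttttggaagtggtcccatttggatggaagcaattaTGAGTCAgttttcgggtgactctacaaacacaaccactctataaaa
Mmp1a (chr9:7464041-7464140, plus strand): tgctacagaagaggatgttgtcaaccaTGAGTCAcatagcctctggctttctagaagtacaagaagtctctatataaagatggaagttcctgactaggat
Mmp10 (chr9:7502242-7502341, plus strand): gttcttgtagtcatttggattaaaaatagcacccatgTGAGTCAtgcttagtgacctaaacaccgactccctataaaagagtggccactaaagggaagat
Mmp7 (chr9:7691990-7692089, plus strand): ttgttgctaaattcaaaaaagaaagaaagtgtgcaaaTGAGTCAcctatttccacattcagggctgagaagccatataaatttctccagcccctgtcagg

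Whether these genes share a pattern across the arrays was not tested. Mmp13, a collagenase, read 4.49, 7.47, 7.06, 7.20 and 7.13 in ischemic arrays 1 to 5 and 6.40, 5.39 and 7.32 in normal arrays 1 to 3, with ischemic 1 near the floor. Its difference of 0.30 ± 0.72 (SE, limma adjusted p = 0.970) was 0.85 without ischemic 1 and −0.19 without normal 2. Mmp12 and Mmp13, which reached the median signal, both had ischemic 1 as their lowest array and ischemic 2 and normal 3 as their highest. The other 5 genes shown, Mmp1a, Mmp1b, Mmp3, Mmp7 and Mmp10, lay below the median signal in the mean and differed by −0.23 (Mmp1b) to 0.13 (Mmp3). A match of letters is a description of the sequence and was not tested for binding in these cells.

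Of the 9 proteolytic ADAMs outside the reproductive tract, 6 reached the median signal of all genes and 8 had positive differences. Adam15, a membrane protein with an integrin-binding disintegrin domain, read 9.34, 8.25, 8.17, 8.41 and 8.43 in ischemic arrays 1 to 5 and 7.60, 8.08 and 8.08 in normal arrays 1 to 3. The groups did not overlap, but ischemic 3 and the 2 higher normal arrays were nearly level. The means of 8.52 ± 0.47 (SD, n = 5) and 7.92 ± 0.28 (SD, n = 3) differed by 0.60 ± 0.31 (SE, limma adjusted p = 0.791; two-sided exact permutation p = 0.0536). All 4 of its probe sets were positive, from 0.16 to 0.63, but the groups overlapped on the other 3. They overlapped for Adam15 also with median centring, ribosomal scaling, no scaling or the mean of probe sets, and the difference was 0.39 without ischemic 1.

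Adam17, the converting enzyme of tumour necrosis factor and a main sheddase of epidermal growth factor receptor ligands, read 8.24, 9.35, 9.61, 9.13 and 9.24 in ischemic arrays and 7.75, 9.14 and 9.23 in normal arrays. Replicate 1 was the low array of each group. Its difference of 0.41 ± 0.43 (SE, limma adjusted p = 0.953) was −0.068 without normal 1, and its 3 probe sets gave 0.41 to 0.97. Adam10, which cleaves Notch receptors, read 9.15, 9.06, 9.70, 9.40 and 10.08 in ischemic arrays and 8.63, 9.46 and 10.06 in normal arrays, almost the same range. The difference of 0.097 ± 0.37 (SE, limma adjusted p = 0.976) had a 95% interval from −0.75 to 0.95, and it was −0.28 without normal 1 and −0.054 without ischemic 5. Scaling by array medians (−0.099) or by ribosomal protein genes (−0.27) also turned its sign. Adam19, which cleaves neuregulin, read 9.17, 9.65, 7.68, 8.86 and 8.002 in ischemic arrays and 9.50, 8.997 and 8.91 in normal arrays. The 3 arrays with high Xist signal were its 3 highest, a pattern of 5 of 65 members (7.69%) and of 4.86% of all genes. The difference of Adam19 was −0.46 ± 0.46 (SE, limma adjusted p = 0.951). It was 0.32 on its other probe set and ran from −0.71 (without ischemic 2) to −0.22 (without ischemic 3).

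Adam8, a protease of leukocytes that was chosen for mention after its values were seen, had the largest positive difference of the 65 genes. It read 5.27, 7.27, 8.71, 7.41 and 6.81 in ischemic arrays and 4.96, 5.97 and 6.83 in normal arrays, so the 3 highest arrays were ischemic and ischemic 1 was low. The means of 7.10 ± 1.24 (SD, n = 5) and 5.92 ± 0.93 (SD, n = 3) differed by 1.18 ± 0.72 (SE, limma adjusted p = 0.866), by 1.63 without ischemic 1 and by 0.70 without normal 1. Ischemic 3, its highest array, was also the highest in the macrophage list (10.44) and the neutrophil list (5.97), and the part of either was not tested. Adam9 differed by 0.030 ± 0.62 (SE), with its sign turning without ischemic 3 (−0.39), ischemic 5 (−0.12) or normal 1 (−0.29).

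Adam12 and Adam28, also chosen after their values were seen, were high in 1 and 2 ischemic arrays. Adam12, a protease of developing and regenerating mesenchyme, read 8.91 in ischemic 1 and 4.16 to 6.33 in the other ischemic arrays, against 4.54 to 6.16 in normal arrays, and its difference of 0.77 ± 0.99 (SE) was 0.038 without ischemic 1. Adam28, a lymphocyte ADAM, read 6.40 in ischemic 1 and 6.13 in ischemic 2 but 4.96 to 5.13 in the other 6 arrays. Those 2 arrays were also the highest in the B cell list mean (9.33 and 7.91, against 5.28 to 6.85 elsewhere, with 1 of 5 measured genes below the median signal), and its part in the Adam28 values was not tested. All 16 ADAMs known mainly from the reproductive tract lay below the median signal, with differences of −0.76 (Adam1b) to 0.54 (Adam34). The 3 brain ADAMs without protease activity, Adam11, Adam22 and Adam23, differed by −0.0038 to 0.50, also below the median signal.

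The widest differences among ADAMTS genes were in Adamts1 and Adamts9, whose enzymes cut versican and aggrecan. As a class the 7 ADAMTS proteoglycanases had 3 positive and 4 negative differences (median −0.071). Adamts1 read 6.27, 6.13, 8.88, 7.92 and 9.89 in ischemic arrays 1 to 5 and 7.88, 10.48 and 9.88 in normal arrays 1 to 3. The ischemic arrays spanned a wide range that took in normal 1 and reached normal 3. The means of 7.82 ± 1.63 (SD, n = 5) and 9.41 ± 1.36 (SD, n = 3) differed by −1.59 ± 0.97 (SE, limma adjusted p = 0.865), which ran from −2.36 without normal 1 to −1.06 without normal 2. Adamts9 read 5.41, 5.26, 6.48, 4.38 and 7.86 in ischemic arrays and 6.04, 7.78 and 6.96 in normal arrays, and differed by −1.05 ± 0.76 (SE, limma adjusted p = 0.917). Its 3 probe sets gave −1.05, −0.93 and 0.26. Without normal 2 the difference of Adamts9 was −0.62. Without ischemic 5 it was −1.54, and in that setting the lowest adjusted p of any member was 0.348 (Timp3, limma).

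Adamts5, the main aggrecanase of mouse cartilage, read 10.58 in ischemic 1 and 5.97 to 6.71 in the other ischemic arrays, against 6.32 to 6.96 in normal arrays. Its difference of 0.50 ± 0.99 (SE, limma adjusted p = 0.968) was −0.36 without ischemic 1 and −0.34 among the 5 arrays with low Xist signal. Adamts10, which acts on fibrillin microfibrils, was high in ischemic 4 (9.05) and normal 2 (9.55) and between 6.47 and 7.12 in the other 6 arrays. The difference of −0.51 ± 0.77 (SE, limma adjusted p = 0.962) was 0.38 without normal 2, −1.01 without normal 1 and 0.89 on its other probe set. Adamts4, the other aggrecanase, chosen after its values were seen, was high in ischemic 3 (7.20), ischemic 5 (7.81) and normal 3 (6.65) and between 4.28 and 4.66 in the rest, with a difference of 0.64 ± 0.96 (SE) that was 0.12 without ischemic 5 and 1.42 without normal 3. The 11 ADAMTS genes other than Adamts1, Adamts5, Adamts9 and Adamts10 differed by −0.37 to 0.64, all below the median signal.

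**Figure D4:**
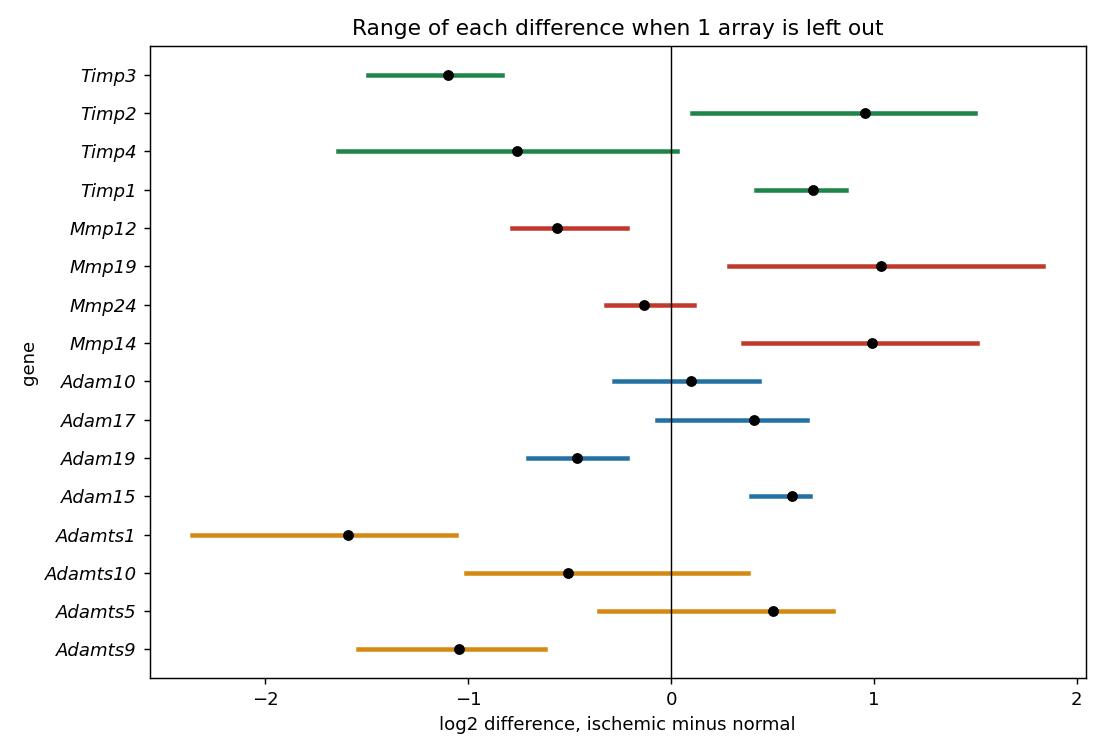
Difference between ischemic and normal arrays (x axis, log2) of 16 genes with all 8 arrays (black points) and the range of values when any 1 array is left out (bars, coloured by subfamily). The bar crosses 0 for Timp4, Mmp24, Adam10, Adam17, Adamts10 and Adamts5, and Timp3 stays between −1.49 and −0.83.

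Timp3, Timp4, Adamts1 and Adamts9, the inhibitors and proteases with the most negative differences among the named genes, had the same 3 arrays as their highest, ischemic 5, normal 3 and normal 2. This was so for 4 of 65 members (6.15%) and for 3.21% of all genes, and was looked for after the values were seen. The same 3 arrays were the highest in the mean of the endothelial list, which read 6.74, 6.93, 7.56, 8.18 and 9.32 in ischemic arrays 1 to 5 and 7.56, 9.26 and 9.003 in normal arrays 1 to 3. Timp3 followed the order of that list over all 8 arrays. All 9 endothelial genes were measured, 9 of 9 reached the median signal, and 7 of 9 had negative differences (median −1.15), with Flt1 and Eng the exceptions. The podocyte list also had these 3 arrays highest, at 7.80 in ischemic 5, 7.66 in normal 3 and 7.23 in normal 2 against 6.02 to 7.11 elsewhere. Of its 4 measured genes Podxl and Synpo reached the median signal, and Nphs1 and Wt1 were below it. The part of endothelial cells or podocytes in the values of these 4 members was not tested.

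**Figure D5:**
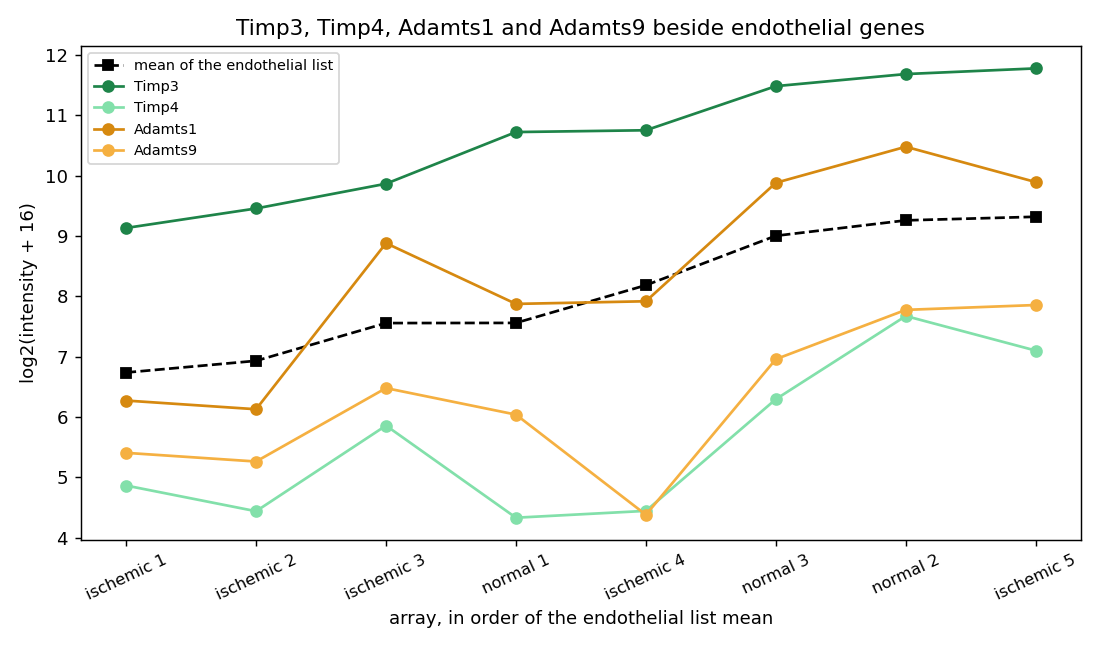
Signal (y axis, log2(intensity + 16)) of Timp3, Timp4, Adamts1 and Adamts9 and the mean of 9 endothelial genes (dashed) on the 8 arrays, ordered by that mean (x axis). Timp3 runs in the same order from 9.13 in ischemic 1 to 11.78 in ischemic 5, and the 3 arrays on the right are the highest for all 4 genes.

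Other genes of the pathway did not pass the test either. Of 83 listed activators, inhibitors, relatives and substrates 78 were measured and 0 passed limma's adjusted p of 0.05, while 2 higher and 8 lower had an unadjusted p under 0.05 (2.11% and 5.02% of all genes). On the lower side Egf, the epidermal growth factor precursor made by the distal tubule, read 4.88 to 7.91 in ischemic and 9.42 to 9.86 in normal arrays and differed by −3.03 ± 0.59 (SE, limma adjusted p = 0.149). Mep1a, a meprin metalloproteinase of the proximal tubule brush border, read 4.87 to 6.46 and 7.56 to 9.85 and differed by −2.61 ± 0.57 (adjusted p = 0.183). Mme (neprilysin), another brush border metalloproteinase, differed by −1.32 ± 0.28 (adjusted p = 0.171) and Klk1, tissue kallikrein, by −2.17 ± 0.49 (adjusted p = 0.189), again with the groups apart. These 4 tubule genes moved with the proximal tubule list and the distal nephron list, in which 10 of 10 and 10 of 10 genes had negative differences (medians −3.08 and −2.07), and the part of tubule cells was not tested.

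On the higher side were Adamtsl4, a protease-free relative of the ADAMTS enzymes, at 1.34 ± 0.53 (SE, limma adjusted p = 0.618), and Il6ra, the interleukin-6 receptor that ADAM10 and ADAM17 release, at 0.99 ± 0.40 (limma adjusted p = 0.639), both with overlapping groups. Adamtsl4 was at 0.87 without normal 2, and Il6ra was at 0.60 without normal 1 and 0.33 with the mean of probe sets. By list, 14 of 19 activators and cofactors had negative differences (median −0.48), 6 of 8 inhibitors did (median −0.25), and 13 of 24 proteins shed by ADAMs had positive ones (median 0.076). The 13 matrix substrates had 6 positive and 7 negative differences (median −0.16).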

How the data were processed

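RNA of the sorted cells (Qiagen miRNeasy) was amplified by NuGEN WT-Ovation Pico and its cDNA biotinylated, per the labels' protocols. The authors deposited 1 table of linear probe set intensities for 8 arrays; software, background correction and scaling: not given in the sources used here. Of 45101 probe sets 64 controls were left out, and 34945 had 1 symbol, 932 several and 9160 were not listed in the annotation. Intensities were taken as log2(value + 16) and quantile normalized, since quartiles differed between arrays by up to 0.39. A gene was its probe set with the highest mean, with no filter on brightness.

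Groups came from the titles. limma 3.58.1 (lmFit, eBayes) in R 4.3.3 was fitted to all 18193 genes with Benjamini-Hochberg adjustment and a threshold of 0.05, and figures were drawn with matplotlib 3.10.9. Single genes were also given an exact permutation test. The genes named were all TIMPs, the 4 brightest of each other subfamily and up to 4 per direction with an unadjusted p under 0.05 (there were none), likewise for the pathway list; others are said to be chosen after their values were seen. Members and lists were chosen with earlier results of these data known. On simulated data for this comparison, with 200 changed genes among 18193, limma recovered 4.0% of changes of 2-fold, 46.6% at 4-fold and 82.8% at 8-fold, in genes above the median signal that vary independently. Promoter letters came from RefSeq (GRCm38.p6), and the array names no build. The replicate numbers were not taken to pair arrays, as the labels do not say that they pair mice. Deviations of same-numbered arrays correlated at 0.16, −0.088 and 0.10. These values cannot decide on pairing, since arrays of different numbers were not compared. Alternatives are in the closing part.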

Additional observations from a re-analysis of the deposited data

Results flagged for a closer look

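In 11 of the 65 genes a single ischemic array lay far from the other 4, by Dixon's test at the 95% level, where chance flags about 1 in 20 groups. The same was so of 11.5% of all 18193 genes, against 16.9% of the members, and the difference was not tested. Of the 11 members 7 lay below the median signal (14.6% of the 48 members there, against 14.4% of all genes there). The rest, Adam15, Adamts5, Adamts10 and Mmp13, reached the median signal, and the higher share of members arose there. The normal group of 3 was not tested. Ischemic 1 was the lone high array for Adam15 (9.34, next 8.43), Adam4 (6.59, next 5.21), Adam34 (6.98, next 4.75), Adam26a (5.55, next 4.42) and Adamts5 (10.58, next 6.71), and the lone low one for Mmp13 (4.49, next 7.06). Ischemic 3 was the lone high array for Timp1 (6.34, next 5.39) and Mmp9 (6.09, next 4.87) and the lone low one for Mmp1a (4.13, next 4.32). Ischemic 2 was so for Adam25 (5.82, next 4.61) and ischemic 4 for Adamts10 (9.05, next 7.12), both on the high side.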

How the results depend on the processing

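Alternatives were 13 other settings and leaving out each of the 8 arrays. The replicate block takes each difference from arrays 1 to 3 of each group, since ischemic 4 and 5 have no normal array of their number. In all of them 0 members passed an adjusted p of 0.05. The count with an unadjusted p under 0.05 was 0 in each direction in the main setting. On the higher side it became 1 with the replicate block, 3 with Xist class as a block and 1 (Mmp11) in the 5 arrays whose Xist was low. With 1 array left out it was 0 to 2. Over all genes the higher count was 384 in the main setting. It was 444, 494 and 377 in the same order, and 191 to 633 with 1 array left out. On the lower side the member count became 1 with arrays scaled to ribosomal protein genes and 1 with an intensity trend (Timp3 in both). It became 2 with the replicate block, 2 with Xist class as a block and 0 to 3 with 1 array left out. Over all genes the lower count was 913 in the main setting. It was 1643, 951, 962 and 1004 in the same order, and 617 to 1113 with 1 array left out. The members were Adam8, Adamts1 and Timp3 with the replicate block. They were Timp1, Timp2, Mmp19, Adamts1 and Timp3 with the Xist block, where the lowest adjusted p of any member was 0.330 (limma). Members with groups apart on the higher side numbered 0 with ribosomal scaling, 1 (Timp1) with no scaling and 1 (Timp1) with the mean of probe sets. They numbered 1 (Adam15) with genes above the 40th percentile, where 25 members were tested and Timp1, at percentile 35.3 by signal, was not. The count was 7 among arrays with low Xist signal (3 against 2) and 2 to 7 with 1 array left out. With median centring Mmp23 took the place of Adam15. On the lower side members with groups apart numbered 3 among arrays with low Xist signal and 0 to 1 with 1 array left out. The share of all genes with groups apart was not counted in these alternatives. With fewer arrays, as with 3 against 2, groups come apart by chance more often. Of the pathway genes 1 (Egf) passed with ribosomal scaling, where 156 of all 18193 genes did. With 1 array left out 0 to 1 passed (Mme, without normal 3, where 113 of all genes did). In the main setting 0 of all genes passed.

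The unadjusted count of pathway genes on the higher side, 2 in the main setting, was 1 with median centring, 0 with ribosomal scaling, 1 with no scaling, 4 with a pseudocount of 1 or 64, 5 with the mean of probe sets, 5 with the trend, 4 with array weights, 4 with the replicate block, 6 with the Xist block, 1 among arrays with low Xist signal and 0 to 6 with 1 array left out. Over all genes the higher count was 384 in the main setting and 124 (ribosomal scaling) to 494 (Xist block) in the other settings. With 1 array left out it was 191 to 633. The ADAM median was 0.42 with a pseudocount of 1. The ADAMTS median was −0.17 with ribosomal scaling, −0.30 with a pseudocount of 1 and −0.16 to 0.038 with 1 array left out. For genes above the 40th percentile it was −0.51, over a smaller set that held only Adamts1, Adamts4, Adamts5, Adamts9 and Adamts10.

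Of the 25 members described singly, 9 kept their sign under every alternative, among them Timp1, Timp3, Adam15, Adam8, Mmp19, Mmp12 and Adamts1. Signs turned for Adam10 with median centring (−0.099), ribosomal scaling (−0.27), no scaling (−0.11), the replicate block (−0.078) and low Xist signal (−0.030), and for Adam9 with median centring (−0.093), ribosomal scaling (−0.26), no scaling (−0.11) and the replicate block (−0.022). With the replicate block, in which ischemic 4 and 5 do not enter the difference, Mmp2 was at −0.38 and Mmp13 at −0.029. With low Xist signal Adamts5 was at −0.34, Mmp24 at 0.15 and Adam12 at −0.12. With array weights Adamts5 was at −0.29 and Mmp24 at 0.18, and with the mean of probe sets Adamts10 was at 0.19 and Mmp24 at 0.091. Mmp9 was at −0.096 with ribosomal scaling and −0.082 with a pseudocount of 1. Single probe sets gave −0.048 for Adam10, 0.32 for Adam19, 0.89 for Adamts10, −0.16 for Adamts5, 0.26 for Adamts9, 0.15 and 0.26 for Mmp24, −0.20 for Mmp14, and −0.56 and −0.89 for Timp2. With 1 array left out signs turned for Adam10 (−0.28 to 0.43), Adam17 (−0.068 to 0.67), Adamts10 (−1.01 to 0.38), Adamts5 (−0.36 to 0.80), Mmp24 (−0.32 to 0.11), Timp4 (−1.64 to 0.028), Adam9 (−0.39 to 0.28), Mmp8 (−0.21 to 0.49), Mmp9 (−0.26 to 0.18) and Mmp13 (−0.19 to 0.85). The cause of these changes was not tested. Where 1 array is left out, the other arrays of its group set the spread, and arrays near the floor of 4.09 limit what dim genes can show.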
